A study of Mus musculus with 4 samples.

Results

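The guanylate-binding protein family was followed here as the 9 genes Gbp2, Gbp2b, Gbp3, Gbp4, Gbp5, Gbp6, Gbp7, Gbp8 and Gbp9, chosen by symbol from the 30905 genes of the count matrix. All 9 were present and had counts. Gbp10, a further gene of the family, was also in the matrix but not among the chosen symbols. The study profiled single cells of 4 mouse hearts that had been transplanted heterotopically, that is, joined to the vessels of the abdomen of a recipient that keeps its own heart, and removed at day 5. There were 2 hearts of each kind of graft: allogeneic grafts, from Balb/C donors, and syngeneic grafts, from C57BL/6J donors. All recipients were C57BL/6J and animals were males of 8 to 10 weeks, per the study's methods.

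The 4 libraries stand in 1 matrix and are told apart only by a number from 1 to 4 at the end of each cell barcode. Nothing in the labels or files ties a number to a graft, so libraries are named by number, no allogeneic with syngeneic comparison was made, and no p-value was computed. The libraries are not treated as replicates of each other. Of 53824 deposited cells, 42395 were kept, 9358 to 12496 per library, with a median of 4578 to 11902 UMIs per cell. A UMI is a tag that marks 1 captured RNA molecule. Library 4 was the deepest and held most macrophages (5835 of 8541) and T/NK cells (1409 of 1868). Barcode sequences found under more than 1 number were 308, in 616 cells. Levels are given as counts per 1000000 non-mitochondrial UMIs (CPM) of a class in a library, with the exact Poisson 95% interval in brackets where shown, which covers counting error only. Each molecule is counted once at its 3′ end, so transcript length does not scale these levels.

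Guanylate-binding proteins are large GTPases of the dynamin superfamily. Cells make them in quantity when interferon gamma, released by activated T and natural killer cells, acts on them through transcription factors such as Irf1, and type I interferons raise them too. The proteins coat the vacuoles of intracellular microbes or bacterial surfaces, break them open and promote inflammasome activation, and in vessels and leukocytes their transcripts are widely used as a readout of interferon exposure.

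The members lie in 2 groups in the mouse genome (GRCm38, GENCODE M21). Gbp5, Gbp7, Gbp3, Gbp2b and Gbp2 follow each other on the plus strand of chromosome 3, from the start of Gbp5 at 142493978 to the end of Gbp2 at 142638008. Gbp8, Gbp9, Gbp4 and Gbp6 lie on the minus strand of chromosome 5, from 105014150 to 105293698, with Gbp10 between Gbp4 and Gbp6. The annotated models of Gbp8, Gbp9 and Gbp4 overlap but share at most 61 exonic bases. Gbp6 and Gbp10 are near-identical copies at the end that is sequenced: 69.1% of the 90-base windows in the last 600 bases of Gbp6 occur in Gbp10. For Gbp10, 82.4% of such windows occur in Gbp6. The split of reads between these 2 genes, and so the level of each, is therefore uncertain.

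RefSeq promoter windows (GRCm38.p6) were at hand for 5 of the 9 members, all on chromosome 3. They are shown because interferons act on this family through its promoters and because each of the 5 windows held the same short motif within 250 bases upstream of the start. The motif is the core of the interferon-stimulated response element, which is GAAA, then any 2 bases (NN), then GAAA. It was searched on both strands and read in all 5 as TTTC, NN, TTTC. Of 32851 mouse promoter windows, 2.98% held it. Each stretch below runs 5′ to 3′ on the plus strand of chromosome 3, from 60 bases before the motif to 10 bases after it, with the motif in capitals. In Gbp3 a pair of overlapping matches makes 1 run of capitals.
Gbp2, chr3:142620544-142620623: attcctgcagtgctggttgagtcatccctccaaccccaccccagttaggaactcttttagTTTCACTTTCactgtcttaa
Gbp2b, chr3:142594650-142594729: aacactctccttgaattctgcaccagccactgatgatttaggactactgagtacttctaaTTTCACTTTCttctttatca
Gbp3, chr3:142559939-142560024: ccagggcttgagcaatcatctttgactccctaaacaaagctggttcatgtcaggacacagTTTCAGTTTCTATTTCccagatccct
Gbp5, chr3:142496709-142496788: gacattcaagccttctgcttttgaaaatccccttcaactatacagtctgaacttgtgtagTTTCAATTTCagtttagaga
Gbp7, chr3:142530223-142530302: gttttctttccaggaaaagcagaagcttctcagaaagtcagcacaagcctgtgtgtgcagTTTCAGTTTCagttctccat

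The motif began 59 bases before the RefSeq start in Gbp2, 137 in Gbp2b, 45 in Gbp3, 165 in Gbp5 and 53 in Gbp7. Gbp2 and Gbp2b, which lie next to each other, carried the same letters in the motif, and so did Gbp3 and Gbp7 in their first match. In Gbp2 the motif lay inside the first exon of a GENCODE model, since 22 of its printed bases are annotated as 5′ UTR. A second RefSeq window of Gbp3, at a start further downstream, held no match. The gamma-activated site, TTCNNNGAA, which reads the same on both strands, was found in Gbp5 and Gbp7, beside 7.02% of all windows. A match describes the letters and was not tested as a binding site.

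Cells were clustered without 180 Gbp, interferon-response and major histocompatibility genes, so the levels of these genes did not enter the clustering directly. Other genes that varied with the family, such as Herc6, were not among those left out. Classes were then named from lists of marker genes, and "-like" marks a name that rests on markers. The same class was held by different clusters in different libraries: endothelial-like cells of libraries 1, 2, 3 and 4 came mostly from clusters 1, 3, 2 and 21, macrophage-like cells from clusters 11 and 16 in libraries 1 to 3 and from clusters 4 and 5 in library 4. The T/NK-like and pericyte-like classes were single clusters. Cluster 21 carried 4 of the 8 endothelial markers, against 8 in clusters 1, 2 and 3, and the summed level of these markers was 4695 CPM in endothelial-like cells of library 4 against 7012 to 9245 in the other libraries. Cells were also chosen directly by at least 4 of these markers and no UMI of Ptprc, the common leukocyte antigen. They gave 1009, 157, 509 and 7937 CPM of the family in libraries 1 to 4. Of the chosen cells, 91.4%, 65.8%, 86.7% and 93.7% bore the endothelial-like name in these libraries. Cells of few UMIs meet such a rule less easily. A cluster made mostly of 1 library cannot be told apart from that library.

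In endothelial-like cells, the lining of the graft vessels and the largest class (13099 cells), the summed level of the 9 members differed widely between libraries. The sum was 1125 CPM (1112 to 1138) in library 1, 189 (184 to 194) in library 2, 557 (549 to 564) in library 3 and 8005 (7941 to 8069) in library 4. Library 4 stood 7.12-fold above library 1, 14.4-fold above library 3 and 42.4-fold above library 2. The order 4, 1, 3, 2 was also found in pericyte-like cells, with sums of 666, 100, 384 and 7317 CPM in libraries 1 to 4, in fibroblast-like cells, with 297, 32.5, 132 and 4131 CPM, and in macrophage-like cells, with 233, 27.4, 133 and 3645 CPM. No interval met another within any of these classes. In macrophage-like cells, the graft phagocytes, library 4 was 133-fold above library 2, against 42.4-fold in endothelial-like cells. These macrophage-like cells came from clusters 11 and 16 in library 2 and mostly from clusters 4 and 5 in library 4. Those of library 2 carried the 7 granulocyte markers at a summed 5028 CPM, against 9776 CPM of their own 9 markers. In libraries 1, 3 and 4 the granulocyte markers summed to 96.5 to 222 CPM and macrophage markers to 19756 to 33796 CPM. The part of these granulocyte transcripts in the library 2 values, here and below, was not tested.

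T/NK-like cells, the lymphocytes that release interferon gamma, had a narrower range. Their sums were 351 CPM (321 to 383), 201 (170 to 235), 408 (364 to 455) and 546 (536 to 556) in libraries 1 to 4. Library 4 was highest here too, but only 1.56-fold above library 1, 1.34-fold above library 3 and 2.72-fold above library 2, and the intervals of libraries 1 and 3 overlapped. In library 4 the T/NK-like class had the lowest sum of the 9 groups of cells measured, and in library 2 the highest of 10, where its interval met that of the endothelial-like cells. T/NK-like cells of library 2 also carried the 8 endothelial markers at a summed 1158 CPM and the 7 granulocyte markers at 2416 CPM, against 1804 CPM of their own 8 markers, of which Ncr1 was at 0. In libraries 1, 3 and 4 their own markers summed to 5015 to 7384 CPM and the endothelial ones to 61.7 to 539 CPM. Of the 164 cells of library 2, 158 fell in a subcluster led by Fabp4, S100a8 and Cd36, and the part of these transcripts in the library 2 values was not tested. The 9 macrophage markers summed to 205, 133, 394 and 735 CPM in T/NK-like cells of libraries 1 to 4. They summed to 19756 CPM in macrophage-like cells of library 4. With doublets kept, the T/NK-like sum of library 4 was 817 CPM. The part of macrophage transcripts in the T/NK-like values, here and below, was not tested.

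**Figure D1:**
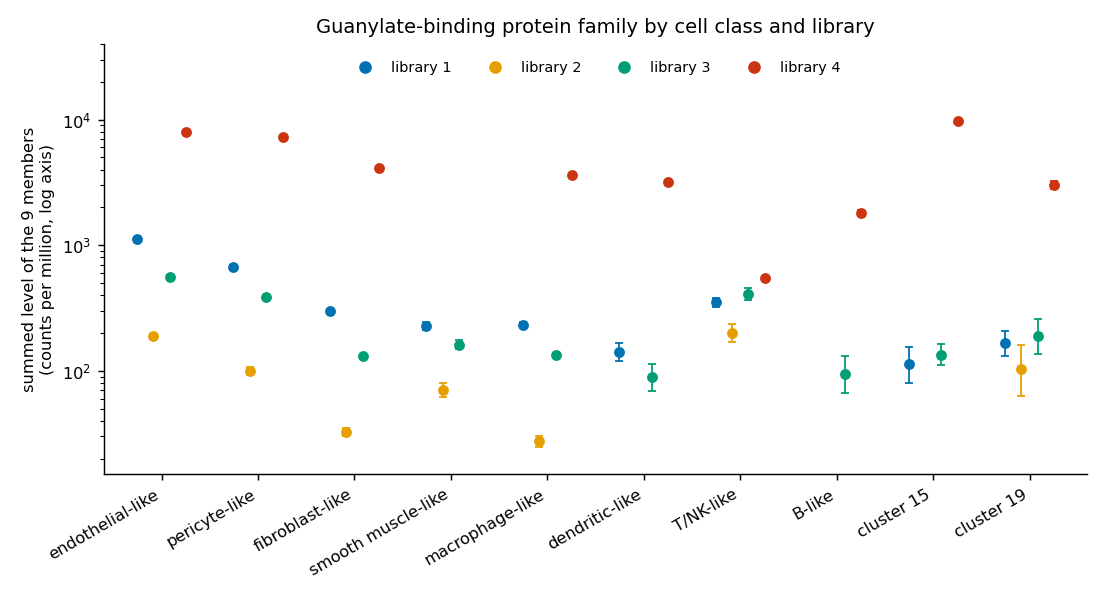
Summed level of the 9 members in CPM (log axis) for 10 groups of cells, 1 point per library with its exact Poisson 95% interval. Library 4 lies highest in every group it is drawn for, from 546 CPM in T/NK-like cells to 9716 in cluster 15, and library 2 lies lowest in endothelial-, pericyte-, fibroblast-, smooth muscle-, macrophage- and T/NK-like cells.

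The rank of the classes changed with the library. In libraries 1 and 3 endothelial-like cells led, and T/NK-like and pericyte-like cells came next. In library 4 the highest sum, 9716 CPM (9590 to 9844), was that of cluster 15, ahead of endothelial-like (8005), pericyte-like (7317), fibroblast-like (4131), macrophage-like (3645), dendritic-like (3212), cluster 19 (3024), B-like (1808) and T/NK-like cells (546). Cluster 15 held 1120 cells, was led by Acod1, Asprv1 and Hdc, and carried 6 of 7 granulocyte markers, but stayed unnamed because of its low depth. The cells of this cluster in libraries 1 and 3 had sums of only 113 and 135 CPM. The granulocyte-like class proper, from library 2, stood at 43.5 CPM, and erythroid-like cells, which should lack the family, at 23.3 CPM in library 1. In the latter, erythroid markers took 916984 CPM and left few UMIs for any other gene. Dendritic-like cells of library 4 carried the 8 dendritic markers at a summed 977 CPM. Macrophage markers (9 genes) summed to 3431 CPM in them, fibroblast markers (7 genes) to 2909 CPM and erythroid markers (6 genes) to 24739 CPM. The part of these other transcripts in the dendritic-like values of library 4, here and below, was not tested. Unnamed cluster 19 carried cardiomyocyte markers (7 genes) at a summed 17990 CPM in library 4 and the 9 macrophage markers at 7382 CPM. B-like cells of library 4 carried the macrophage markers at 1378 CPM, against 5983 CPM of their own 6 markers. The part of macrophage transcripts in the cluster 19 and B-like values was not tested. Pericyte-like cells also carried endothelial markers, whose 8 genes summed to 2473 to 4453 CPM in them against 4695 to 9245 in endothelial-like cells, and the part of these markers in the pericyte values was not tested.

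A gene was called as varying when its highest library level was at least 4-fold its lowest, with 10 CPM added to both, among genes of at least 10 CPM in 1 library. Of all 8999 genes tested in endothelial-like cells, 4.4% were called, and 8 of the 9 members were. The exception was Gbp8. All 9 were called in macrophage-like (background 6.27%), fibroblast-like (7.51%) and pericyte-like cells (4.41%). In T/NK-like cells none of 8 tested was called (6.02%), and the ninth, Gbp6, stayed under 10 CPM. At a share of 6.02% a set of 8 genes may give no call at all. Some members reached 10 CPM through library 4 alone and so could enter these counts only by differing. These were Gbp2b and Gbp8 in endothelial-like and pericyte-like cells, Gbp2b, Gbp6 and Gbp8 in macrophage-like cells, and Gbp2b, Gbp4 and Gbp8 in fibroblast-like cells. In T/NK-like cells Gbp2b also reached 10 CPM through library 4 alone, but its range stayed under 4-fold. Leaving out library 4 lowered the counts to 5 of 7 in endothelial-like cells (Gbp2, Gbp3, Gbp4, Gbp5 and Gbp7, background 1.48%), to 5 of 7 in pericyte-like cells (1.31%), to 2 of 6 in fibroblast-like cells (5.27%) to 1 of 6, Gbp2, in macrophage-like cells (3.19%), and left 0 of 7 in T/NK-like cells (2.7%).

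Gbp2, which is carried to microbial vacuoles by a lipid anchor, stood at 1426 CPM over all kept cells of library 4, above the other members, while in libraries 1 to 3 it read 156, 28.6 and 66.5 CPM beside 160, 28.6 and 94.5 CPM of Gbp7. In endothelial-like cells it stood at 266, 54.2, 104 and 1254 CPM in libraries 1 to 4, and in macrophage-like cells at 83.5, 3.1, 36.9 and 1792 CPM. It was the leading member of macrophage-like cells in libraries 1 and 4 and made 57.1% of the family's UMIs in cluster 15 of library 4 (5549 CPM). In T/NK-like cells it read 33.2, 39.6, 65.0 and 143 CPM, so that library 4 was 4.31-fold above library 1.

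Gbp2b, a close relative of Gbp2 known in older literature as mouse Gbp1, was found almost only in library 4. Over all deposited cells, library 4 held 54813 Gbp2b UMIs in 6596 cells, library 1 held 24 in 14 cells, library 3 held 3 in 3 cells, and library 2 held none. None of those 17 cells shared its barcode sequence with library 4. In endothelial-like cells of library 4 Gbp2b reached 1907 CPM (1876 to 1938), second only to Gbp4. Library 2 had 0 UMIs in 3665 such cells, so library 4 was at least 20205-fold higher than the level that 3 counts would give.

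Within library 4 the level of Gbp2b differed widely between the classes. It was 1548 CPM in pericyte-like, 1002 in fibroblast-like, 192 in macrophage-like, 62.4 in cluster 15, 56.7 in B-like and 21.6 in T/NK-like cells. Gbp10 followed a similar split: it read 57.1 CPM in endothelial-like, 54.6 in pericyte-like and 43.3 in fibroblast-like cells of library 4 but 2.21 in macrophage-like and 0.844 in T/NK-like cells. In libraries 1 to 3 the highest level of Gbp10 in any group was 2.07 CPM, from 1 UMI. Its overlap in sequence with Gbp6 bears on all of these Gbp10 values.

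Gbp4, from the chromosome 5 group, changed rank between libraries. Endothelial-like cells had 162, 29.3, 85.1 and 2520 CPM in libraries 1 to 4, and Gbp4 was the leading member there in library 4. Fibroblast-like cells had 6.13, 1.14 and 3.27 CPM in libraries 1 to 3, among the lower members, and 1423 CPM in library 4, where Gbp4 led. This is a 232-fold step from library 1 to library 4, against 5.81-fold for Gbp2 in the same cells. Macrophage-like cells had 10.7, 0.876, 6.05 and 402 CPM, and T/NK-like cells kept a level of 85.4, 46.3, 75.2 and 97.3 CPM in all 4 libraries.

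Gbp7, which takes part in the oxidative killing of microbes, led the family in endothelial-like cells of libraries 1 and 3. Its levels there were 311, 52.8, 176 and 990 CPM in libraries 1 to 4. In library 2 Gbp7 and Gbp2 (54.2 CPM) were within counting error of each other. Macrophage-like cells had 58.3, 17.5, 38.8 and 426 CPM, and in library 2 Gbp7 made most of the family there. T/NK-like cells had 97.4, 39.6, 124 and 120 CPM, and the interval of library 3 met those of libraries 1 and 4, which did not meet each other.

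Gbp3, a neighbour of Gbp7 on chromosome 3, varied in step with it. Endothelial-like cells had 148, 17.8, 80.4 and 634 CPM of Gbp3 in libraries 1 to 4, macrophage-like cells 41.9, 3.37, 30.4 and 336 CPM, and T/NK-like cells 36.7, 19.8, 45.9 and 74.9 CPM. Over the 42 groups of a class in a library with at least 50 cells, Gbp3 and Gbp7 had the highest likeness of any pair of members (Pearson r = 0.97 of log2(CPM + 10)), a description over groups that share libraries and depth.

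Gbp5, a promoter of Nlrp3 inflammasome assembly, was lowest in library 2 in every class measured there. It read 100, 6.23, 31.6 and 441 CPM in endothelial-like cells of libraries 1 to 4 and 13.3, 0.809, 7.97 and 253 CPM in macrophage-like cells. Its highest level was in cluster 15 of library 4, at 971 CPM (932 to 1012). T/NK-like cells had 18.4, 9.25, 15.3 and 30.9 CPM, with overlapping intervals in libraries 1 to 3.

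Gbp9 and Gbp6 also join other members on parasite vacuoles. Gbp9 stood at 110, 26.6, 68.3 and 172 CPM in endothelial-like cells of libraries 1 to 4, only 1.57-fold higher in library 4 than in library 1. It was the single member for which library 4 was lowest in T/NK-like cells, at 21.3 CPM (19.5 to 23.3) against 35.3 (26.2 to 46.5), 27.8 (17.2 to 42.4) and 38.2 (25.8 to 54.6). Gbp6 read 27.0, 1.92, 11.1 and 62.5 CPM in endothelial-like cells, and its overlap in sequence with Gbp10 bears on all of these values.

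Gbp8 was highest in T/NK-like cells in libraries 1 to 3. T/NK-like cells had 38.1 CPM (28.6 to 49.7), 15.9 (8.19 to 27.7), 38.2 (25.8 to 54.6) and 28.5 (26.4 to 30.8) in libraries 1 to 4, a range of less than 3-fold. In libraries 1 to 3, endothelial-like cells had 1.36, 0.0944 and 0.575 CPM and fibroblast-like cells 1.31, 0.0437 and 0.536 CPM. The T/NK-like interval lay above that of every other class, except that it met that of cluster 19, with 0 and 1 UMI, in libraries 2 and 3. In library 4 the order turned: macrophage-like cells led with 142 CPM (140 to 145), then cluster 15 with 116, dendritic-like cells with 102, fibroblast-like cells with 67.6 and endothelial-like cells with 24.2, below the T/NK-like 28.5. The interval of endothelial-like cells (20.8 to 27.9) met that of T/NK-like cells.

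**Figure D2:**
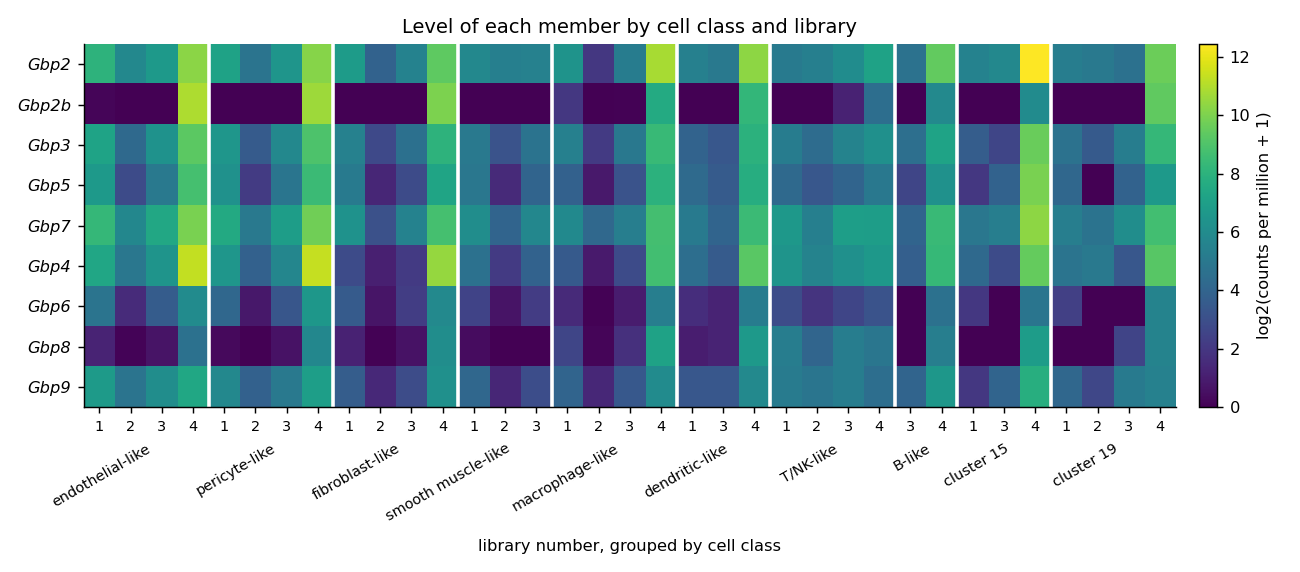
Level of each member (rows) in 10 groups of cells and 4 libraries (columns, library numbers under each group), coloured as log2(CPM + 1). The Gbp2b row is near 0 outside library 4, and the Gbp8 row is raised in T/NK-like cells of all libraries (15.9 to 38.2 CPM) and in most groups of library 4.

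The make-up of the family moved with the library as well as with the class. In endothelial-like cells of libraries 1 to 3, Gbp7 and Gbp2 made the leading shares, with 27.6%, 27.9% and 31.6% for Gbp7 and 23.6%, 28.7% and 18.7% for Gbp2. In library 4 Gbp4 and Gbp2b took their place, with 31.5% and 23.8% of the family's UMIs. In macrophage-like cells Gbp2 led in library 4, at 49.2%, and in library 1, at 35.9%, Gbp7 had the largest share in libraries 2 and 3, and Gbp2b made 5.26% in library 4. T/NK-like cells had Gbp4 and Gbp7 among their leading members in every library, with 17.8% to 24.3% for Gbp4.

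**Figure D3:**
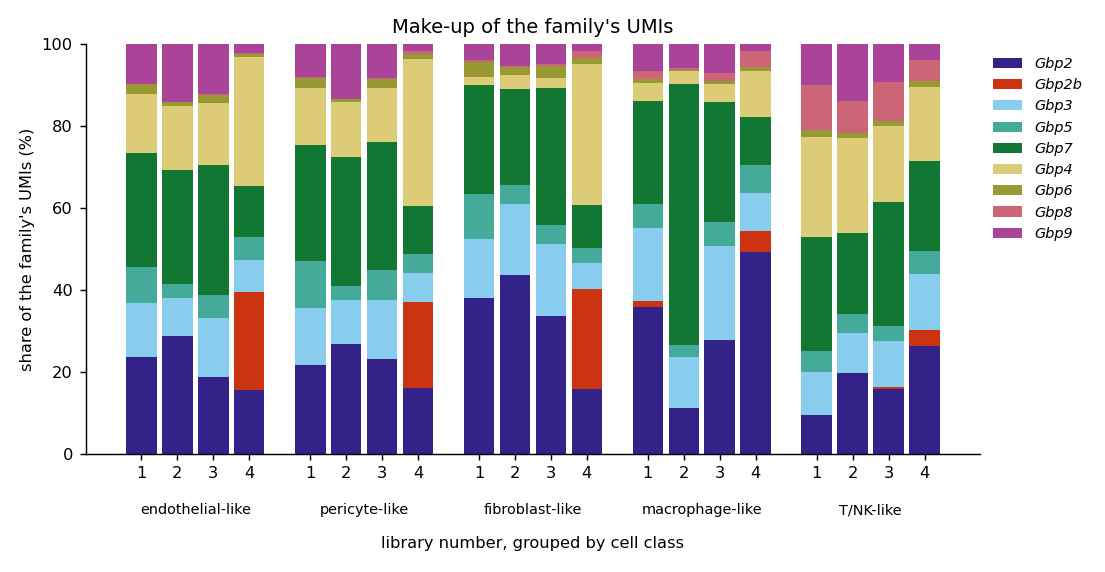
Share of the family's UMIs (%) taken by each member in 5 classes, 1 bar per library number. Gbp2b is visible as a large part only in library 4 of endothelial-, pericyte- and fibroblast-like cells (23.8% in endothelial-like cells), where the Gbp4 share is also larger, and Gbp8 makes 5.22% to 10.9% in T/NK-like cells.

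Within a library, the classes were compared gene by gene with a 2-fold threshold, again with 10 CPM added to both levels, so that members of low level passed less easily than by their plain ratio. In library 1 all 7 members of at least 10 CPM in 1 of the classes were at least 2-fold higher in endothelial-like than in macrophage-like cells, beside 18.3% of all genes tested. The counts were 5 of 5 in library 2 (19.3%) and 6 of 7 in library 3 (18.1%), and none was lower in these libraries (11.8%, 11.7% and 10.7%). Some of these members reached 10 CPM through endothelial-like cells alone and so could be called higher but not lower. These were Gbp6 in library 1, Gbp2, Gbp3, Gbp4 and Gbp9 in library 2, and Gbp4, Gbp5, Gbp6 and Gbp9 in library 3. Gbp2b and Gbp8 stayed under 10 CPM in both classes of these libraries and were not tested. In library 1 both were lower in endothelial-like cells, at 0.114 and 1.36 CPM against 3.11 and 5.03. In library 4 only Gbp2b, Gbp4, Gbp7 and Gbp9 were higher (4 of 9, 16.8%) and Gbp8 was lower (1 of 9, 12.5%). Against fibroblast-like cells, endothelial-like cells had 6 of 7, 4 of 5 and 6 of 7 members higher in libraries 1 to 3 (11.7%, 14.5% and 12.9%) and none lower (11.8%, 10.2% and 11.2%). Through endothelial-like cells alone, 10 CPM was reached by Gbp4 in library 1 and by Gbp3, Gbp4, Gbp7 and Gbp9 in library 2. In library 3 this held for Gbp4, Gbp5, Gbp6 and Gbp9. In library 4 the higher members were Gbp3, Gbp5, Gbp7 and Gbp9 (4 of 9, 10.6%), and Gbp8 was again lower (10.3%).

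Macrophage-like cells had lower levels of several members than T/NK-like cells in libraries 1 to 3 but not in library 4. At 2-fold, Gbp4 and Gbp8 were lower in library 1 (2 of 7, 10.6%) and Gbp2 was higher (1 of 7, 12.4%). Lower in library 2 were Gbp2, Gbp3, Gbp4, Gbp8 and Gbp9 (5 of 6, 18.0%), and in library 3 Gbp4, Gbp7, Gbp8 and Gbp9 (4 of 7, 11.0%), with none higher in either (16.0% and 12.6%). Members that reached 10 CPM through T/NK-like cells alone could be called lower but not higher. These were Gbp8 in library 1, all of those called in library 2, and Gbp4, Gbp5, Gbp8 and Gbp9 in library 3. The T/NK-like cells of library 2 also carried endothelial and granulocyte markers, whose part in this contrast was not tested. In library 4 all 9 were higher in macrophage-like cells (14.0%) and none was lower (15.4%). Gbp6 reached 10 CPM there through macrophage-like cells alone.

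Single cells were compared at equal depth by drawing 1000 UMIs from each and leaving out shallower ones. In library 4 every one of 658 endothelial-like cells had a UMI of some member (exact Clopper-Pearson 95% interval from 99.4%), against 53.2% in library 1, 16.3% in library 2 and 41.3% in library 3. Cells with 3 or more different members made 85.4% in library 4 and 8.22%, 0.336% and 2.17% in libraries 1 to 3. The median endothelial-like cell of library 4 held 8 family UMIs in 1000, with quartiles of 5 and 10, so the high sum was spread over the class.

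Other classes also had their highest share of cells with a member in library 4. Macrophage-like cells with a member made 95.2% there (5819 cells), against 16.3%, 2.06% and 11.5% in libraries 1 to 3. At their own depth, with medians of 11931 to 14807 UMIs, the shares ran from 25.9% in library 2 to 99.9% in library 4. Fibroblast-like cells of library 4 had an interval of 92.2% to 97.0%, against shares of 22.5%, 3.79% and 11.9%. T/NK-like cells reached 47.7% in library 4 and 32.8%, 18.6% and 27.1% in libraries 1 to 3. Their sum in library 4 was less evenly spread, with a median of 0 family UMIs in 1000. The tenth of these cells with most held 42.7% of the family's UMIs, against 19.3% in endothelial-like cells of library 4. Of 202 thinned erythroid-like cells of library 1, which should lack the family, 2.97% had a member. Erythroid markers took 916984 CPM in these cells, so few UMIs of each draw were left for any other gene. This share therefore cannot tell how much free RNA the draws of other classes held. Library 4 held no class that should lack the family, and its lowest group was a T/NK-like subcluster led by Ifng and Ccl3 with 324 CPM.

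**Figure D4:**
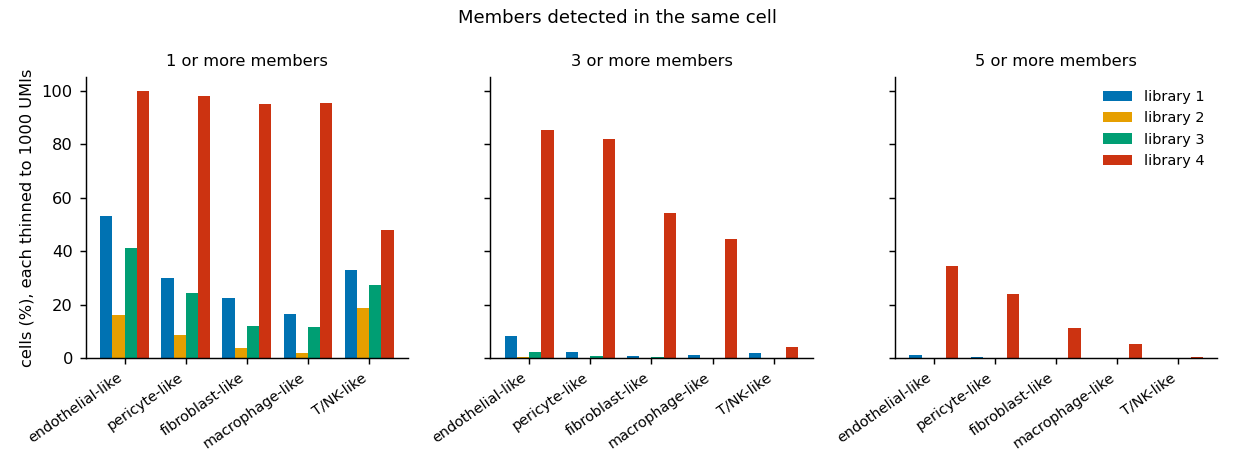
Share of cells (%) with UMIs of 1 or more, 3 or more and 5 or more different members after thinning every cell to 1000 UMIs, by class and library. In library 4, 85.4% of endothelial-like and 44.4% of macrophage-like cells had 3 or more members, and 4.1% of T/NK-like cells did.

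Subclusters showed how far the members varied within a class. Among endothelial-like cells, the subcluster led by Isg15 and Ifit1 had the highest sum outside library 4, 1257 CPM in library 1 and 920 in library 3. Arterial cells (Gja5, Fbln5, Stmn2) had 1042 and 582 CPM, cells of a venous or endocardial kind (Npr3, Cytl1) 634 and 220, and lymphatic cells (Prox1, Ccl21a, Mmrn1) 530 and 271. Of these 3 marker-named subclusters the lymphatic one was lowest in library 1, while in library 3 its interval met that of the venous or endocardial one. The library 4 cells were almost all 1 unnamed subcluster of 646 cells led by Ubd, Serpina3g and Cxcl9 (7991 CPM), so vessel types could not be compared there. Capillary cells of library 2 had 188 and 192 CPM in 2 subclusters.

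In library 4, infiltrating monocytes (Ly6c2, Plac8) had the highest sum of the marker-named macrophage subclusters, 4662 CPM, with Gbp2 at 2421 CPM. Cells of a dendritic kind had less, 2206 CPM in the Cd209a subcluster and 1572 in the one led by Ccr7 and Fscn1. In that mature dendritic subcluster Gbp5 (317 CPM) was second to Gbp2 (788), while Gbp2b was 28.0 CPM. Resident macrophages of libraries 1 and 3 had 203 and 119 CPM. A library 4 subcluster in which Cdh5, Kdr and Plvap led had 1169 CPM of Gbp2b and 1729 of Gbp4, and was left unnamed. The part of endothelial RNA in its values was not tested.

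Among T/NK-like cells of library 4, the subcluster named for regulatory T cells (Foxp3, Ctla4) had 1008 CPM (979 to 1038), natural killer cells 589 (558 to 622), and the cycling subclusters of 361 and 58 cells 382 (370 to 393) and 495 (456 to 537). The regulatory T subcluster held 535 cells over all libraries, and its name rests on 3 of 4 markers. Cd4 was also among its leading genes, and no subcluster was named for other CD4 T cells. It may therefore hold such cells too. This subcluster also had more Gbp8, at 63.0 CPM, than natural killer cells, at 37.0 CPM, with intervals that did not meet. The subcluster led by Ifng, Ccl3 and Xcl1, with the least of the family, had 15.1 CPM of Gbp8.

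Other genes, tied to interferon or to the inflammasome, were described from 5 lists by the same 4-fold rule in endothelial-like cells. There 4.4% of all genes tested were called. Immunity-related GTPases, a family that acts with the guanylate-binding proteins on vacuoles, were called in 10 of 10 tested, with a median range of 12.4-fold, against 19.7-fold for the 9 members and 1.46-fold for all genes tested. Other genes induced by interferon gamma, such as the chemokine Cxcl9, the ubiquitin-like Ubd and the immunoproteasome gene Psmb9, were called in 13 of 13 (17.4-fold). Cxcl9 read 484, 23.5, 186 and 10290 CPM in libraries 1 to 4 and Ubd 2.23, 0.157, 0.261 and 1720 CPM. Ubd thus reached 10 CPM through library 4 alone and could enter the count only by differing. The median of the members likewise includes Gbp2b and Gbp8. Listed genes that passed through 1 library only were not set apart in these counts and medians.

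The type I interferon response had 9 of 14 called (6.35-fold), and 10 of the 14 were highest in library 4, a share not computed for all genes. The exceptions included Isg15 and Ifit1, both highest in library 1. Isg15 read 492, 44.5, 109 and 131 CPM and Ifit1 427, 21.6, 119 and 187 CPM in libraries 1 to 4. Genes of interferon gamma signalling were called in 5 of 13 (2.36-fold). Irf1, a direct activator of the family, was likewise highest in library 1, with 1103, 212, 658 and 746 CPM. Of the inflammasome partners 2 of 5 were called, Casp4 (83.9, 41.2, 77.4 and 232 CPM) and Il1b.

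In T/NK-like cells some of the lists were flatter. None of 6 immunity-related GTPases and none of 12 type I response genes were called. The share of all genes tested was 6.02%, at which lists this small can give no call. Other genes induced by interferon gamma were called in 5 of 10 (4.91-fold). The counts were 3 of 13 for interferon gamma signalling (1.89-fold) and 3 of 7 for inflammasome partners (2.54-fold). The median range of the members was 2.41-fold against 1.72-fold for all genes. Ifng itself, the cytokine that induces the family, was called: 175, 0, 161 and 1322 CPM in libraries 1 to 4 in these cells. Library 2 had no Ifng UMI in 164 T/NK-like cells, and 3 counts there would be 3.96 CPM.

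**Figure D5:**
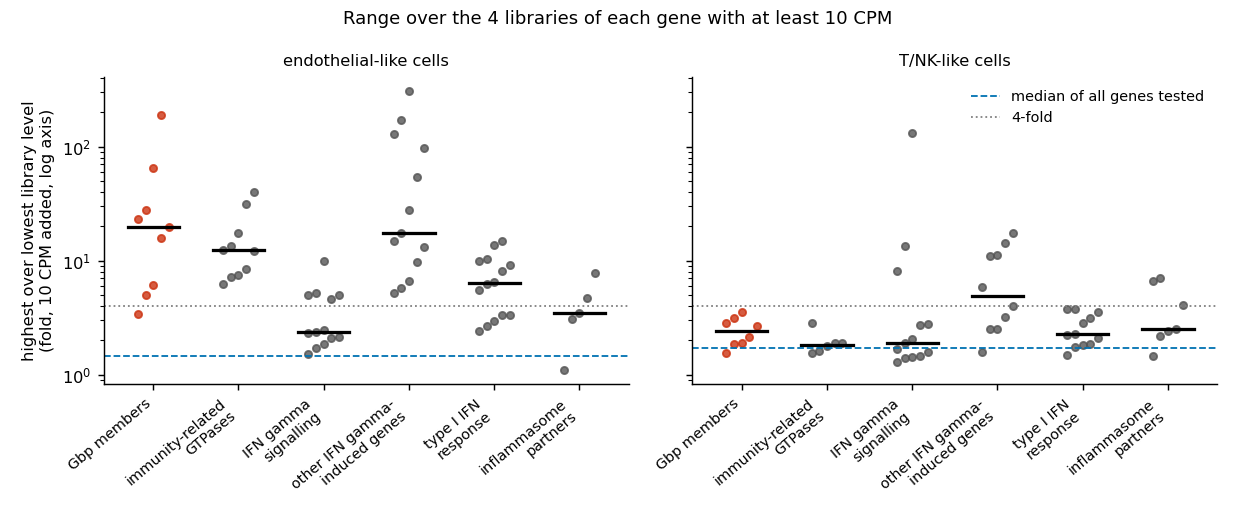
Highest over lowest library level (fold, 10 CPM added, log axis) of each gene of the family and of 5 lists, with the list's median as a bar, the median of all genes dashed and 4-fold dotted. In endothelial-like cells 8 of 9 members lie above 4-fold, beside 4.4% of all genes tested. In T/NK-like cells all 8 tested members lie below it. Of all genes tested there, 6.02% were called, a share at which 8 genes may give no call at all.

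The genes whose pattern was most like the summed family over the 42 groups were Igtp (r = 0.97), Irf7 (0.96), Parp9 (0.95), Irgm2 (0.94) and Herc6 (0.94), followed by Xaf1, H2-T22, Cxcl9, Irgm1 and Ifi47 (0.92 to 0.94). Over the 33 groups of libraries 1 to 3, H2-Q4 (0.93) and Igtp (0.92) led. Igtp, Irgm2, Herc6, H2-T22 and Irgm1 were among the first 10 in both. Gbp2b was most like Batf2, Ubd and Ifi202b (all 0.94), and Gbp8 in libraries 1 to 3 most like Gm14029 and the T cell genes Cd28 (0.97) and Cd96 (0.96). These values describe groups that share libraries and depth, and carry no test.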

How the data were processed

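The authors aligned 10x 3′ v3 reads to mm10 with Cell Ranger and deposited 1 merged matrix of UMI counts, with 30905 genes and 53824 cells. The sources used here name Cell Ranger and Seurat as their tools. A cell was kept if it had more than 200 genes detected and less than 20% of its UMIs from mitochondrial genes. The 5% of cells per library closest to simulated doublets were left out (2231 cells). After log-normalization, 2000 variable genes, with 180 interferon-related genes excluded, gave 10 principal components. Leiden clustering at resolution 0.8 followed (leidenalg 0.10.2), and clusters were named from at least 3 listed markers. An erythroid name also needed 3 markers among the 10 leading genes, a rule added after the data were seen. The members, lists and markers were chosen with earlier results of these data known. Named genes are all members, the gene lists and the 10 genes most like the family, or 3 for each member. Sums of counts per class and library gave CPM with exact Poisson intervals, and shares have exact Clopper-Pearson intervals. The procedure was tested on simulated data. No test between grafts was possible because the deposited barcodes do not name the graft. Not every gene of the lists is reported here.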

Additional observations from a re-analysis of the deposited data

How the results depend on the processing

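The 4, 1, 3, 2 order of libraries held in endothelial-like and macrophage-like cells, and 4, 3, 1, 2 in T/NK-like cells, under every alternative that gave all 4 libraries a value. Which cells bear the endothelial name depended on the clustering. The 663 endothelial-like cells of library 4 fell into an unnamed cluster for 95.3% of them with doublets kept, 95.9% at resolution 0.4 and 94.1% with 20 principal components, and the cause was not tested. The level over all libraries, 1128 CPM as reported, then became 650, 654 and 671 CPM, and the members called became 5 with doublets kept and at resolution 0.4. Cells were also chosen directly by at least 4 of 8 endothelial markers and no Ptprc UMI, an alternative added after seeing the data. They gave 1009, 157, 509 and 7937 CPM in libraries 1 to 4, 830 CPM over all and 9 members called. In these cells Gbp8 read 32.6 CPM in library 4 against 0.0667 in library 2. It reached 10 CPM through library 4 alone and so could enter the count only by differing. The share of all genes called was not computed for these cells or for the other clusterings. With at least 500 genes, 85.8% of the library 1 cells of the class and 27.4% of those of library 3 went to unnamed clusters and the level was 1118 CPM. It was 1191 CPM under 10% mitochondrial UMIs, 1148 with all variable genes, 1043 as a mean over cells and 1061 after thinning. Without libraries 2, 3 and 4 it was 1542, 1461 and 591 CPM, the last with 5 of 7 members called (background 1.48%). The macrophage level, 2590 CPM, became 2575 with doublets kept, 2627 under 10% mitochondrial UMIs, 2675 at resolution 1.6, 2540 with 20 components, 2601 with all variable genes, 2769 as a mean over cells and 2784 after thinning. Without libraries 1 to 4 in turn it was 2723, 2930, 2950 and 109 CPM, the last with 1 of 6 members called (background 3.19%). The T/NK level, 521 CPM, became 764 with doublets kept, 493 under 10% mitochondrial UMIs, 684 as a mean over cells and 687 after thinning, and 531, 530 and 328 CPM without libraries 1, 2 and 4. The 5 main results are levels and counts, which have no direction. Of their alternatives, 34 were rated as moved and 35 as the same. A level was rated as moved when it left the Poisson interval of the reported value. No paired analysis was possible because the barcodes carry no replicate number of a graft. Few cells stand behind some values, such as those of pericyte-like cells of library 4 (52 cells) and dendritic-like cells of library 3 (50 cells).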
